A study of Mus musculus with 24 samples.

Results

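The Ifi200 cluster is a row of related genes on mouse chromosome 1 that encode interferon-inducible proteins, several of which bind DNA. Its members here were the probe sets annotated to Ifi203, Ifi204, Ifi208, Ifi213, Ifi214, Mndal and Aim2, taken by symbol. Of these 7 genes, 6 had a probe set of their own among 22180 genes with one. Ifi203 was measured only by a probe set that also lists LOC100862473 and Ifi203-ps, called the Ifi203 probe set below. Affymetrix microarrays measured RNA of naive CD4 T cells from mice without TRIM28 (KO) and from wild-type littermates (WT). Magnetic enrichment and a flow sort gave the cells, which were taken unstimulated (0 h) or after 4, 24 or 72 h with plate-bound anti-CD3 and soluble anti-CD28, which stand in for antigen and costimulation. The 24 arrays form 8 groups of 3, which are KO and WT at each of the 4 times. The labels do not name the Cre driver, the deleted part of Trim28, the strain or the age. They also do not tie the arrays of a group to separate animals, so the p-values speak only for how far these arrays vary. Levels are log2 intensities as deposited and changes are differences of these, KO minus WT unless another pair is named. A change is called when limma's adjusted p (Benjamini-Hochberg over all genes) is below 0.05.

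Proteins of this family join a pyrin domain, a module through which death-fold proteins assemble, to one or more HIN domains, which hold double-stranded DNA, although some members carry only 1 kind of domain. Aim2 senses DNA in the cytosol and assembles an inflammasome with the adaptor Pycard and the protease Casp1, while mouse Ifi204 is a DNA sensor of macrophages that signals through Sting1. Type I interferon acts through the receptor chains Ifnar1 and Ifnar2, and many of the genes it induces carry an interferon-stimulated response element upstream of their start. TRIM28, brought to DNA by zinc finger proteins with a KRAB domain, represses transcription and is known for silencing endogenous retroviruses.

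In gene order the cluster runs Aim2, Ifi206, Ifi214, Ifi213, Ifi209, Ifi208, Ifi207, Ifi204, Ifi203-ps, Mndal, Ifi211, Ifi203, Ifi202b and Ifi205, which makes 14 genes. RefSeq promoter windows (GRCm38.p6, from 250 bases before to 50 bases after an annotated start) were at hand for 12 of them and for 6 of the 7 members, and Ifi204 and Ifi203-ps were not analysed here in this respect. The windows were searched on both strands for GAAANNGAAA, the core letters of the interferon-stimulated response element, where N is any base. The letters were found in 9 of the 12 genes and in 5 of the 6 members, against 3.44% of all 32851 windows and 11 of 22 genes of a list of other interferon-stimulated genes. The counts are by gene, with a match in any of its windows, and the 3.44% is by window, so the units differ. Some cluster windows are near-copies and so not separate cases. The commonest match in the cluster's own windows read GAAATCGAAA, and since it was picked from them its counts do not test enrichment. It occurs in 16 windows of the whole table (0.0487%), of which 7 were cluster windows, some of them near-copies. Among the members these were Ifi214, Ifi213, Ifi208, the second window of Mndal and the first window of Ifi203, and Ifi206 and Ifi207 held the same letters. The match began 79, 73 and 58 bases before the start in Ifi214, Ifi213 and Ifi208, and 36 and 35 bases before it in Mndal and Ifi203. A match is a description of letters and not a binding site, and the array data do not test it.

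The windows below are shown so that the genes called between genotypes at both 24 and 72 h (Ifi214, Ifi213, Ifi208 and the neighbour Ifi209) can be read beside Mndal and Aim2, which were not called at any time. Each is printed 5′ to 3′ on the gene's strand, with GAAANNGAAA matches in capitals.
Ifi214 (chr1:173535908-173536207, minus strand): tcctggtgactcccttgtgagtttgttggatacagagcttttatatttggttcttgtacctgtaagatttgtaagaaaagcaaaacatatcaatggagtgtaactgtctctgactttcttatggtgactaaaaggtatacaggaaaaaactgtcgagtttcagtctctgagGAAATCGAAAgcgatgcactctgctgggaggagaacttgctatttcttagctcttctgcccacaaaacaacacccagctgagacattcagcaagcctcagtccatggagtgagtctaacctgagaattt
Ifi209 (chr1:173630609-173630908, plus strand): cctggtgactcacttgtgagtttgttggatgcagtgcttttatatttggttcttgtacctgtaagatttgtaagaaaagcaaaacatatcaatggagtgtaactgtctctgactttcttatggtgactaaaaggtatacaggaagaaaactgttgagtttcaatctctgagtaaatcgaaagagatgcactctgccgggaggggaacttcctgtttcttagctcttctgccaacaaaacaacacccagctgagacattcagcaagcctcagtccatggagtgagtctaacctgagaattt
Ifi213 (chr1:173599223-173599522, minus strand): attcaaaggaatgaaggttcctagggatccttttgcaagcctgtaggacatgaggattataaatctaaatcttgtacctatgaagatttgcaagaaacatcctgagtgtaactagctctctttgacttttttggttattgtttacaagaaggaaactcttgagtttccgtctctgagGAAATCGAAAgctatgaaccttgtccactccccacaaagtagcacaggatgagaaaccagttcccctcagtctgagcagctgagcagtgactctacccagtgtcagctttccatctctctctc
Ifi208 (chr1:173673415-173673714, plus strand): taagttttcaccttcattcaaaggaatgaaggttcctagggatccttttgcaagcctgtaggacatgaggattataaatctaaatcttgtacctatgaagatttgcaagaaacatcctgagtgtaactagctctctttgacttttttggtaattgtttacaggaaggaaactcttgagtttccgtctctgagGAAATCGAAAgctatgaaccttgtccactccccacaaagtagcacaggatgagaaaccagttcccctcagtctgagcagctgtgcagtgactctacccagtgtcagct
Mndal, second window (chr1:173880138-173880437, minus strand): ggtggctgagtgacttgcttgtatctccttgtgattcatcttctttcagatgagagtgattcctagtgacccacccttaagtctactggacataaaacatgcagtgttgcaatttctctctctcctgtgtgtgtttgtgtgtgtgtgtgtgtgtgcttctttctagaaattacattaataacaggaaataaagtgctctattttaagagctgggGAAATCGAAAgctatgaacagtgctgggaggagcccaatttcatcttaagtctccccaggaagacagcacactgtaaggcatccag
Aim2 (chr1:173420354-173420653, plus strand): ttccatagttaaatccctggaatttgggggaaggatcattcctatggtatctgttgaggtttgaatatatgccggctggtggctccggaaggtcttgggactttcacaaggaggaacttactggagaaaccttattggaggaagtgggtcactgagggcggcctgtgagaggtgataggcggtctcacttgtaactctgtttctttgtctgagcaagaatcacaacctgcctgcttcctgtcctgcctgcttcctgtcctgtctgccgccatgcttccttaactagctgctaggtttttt
The windows fall into near-copies. Ifi213 and Ifi208 were 98.9% identical over 285 aligned bases, Ifi214 and Ifi209 96% over 299, and the second Mndal window and the first Ifi203 window 97.6% over 289. Ifi209 holds no match: the stretch aligned with the Ifi214 match differs from it by G1T, counted from 1 at the first base of the match. The second Mndal window and that of Ifi207 hold the same 10 letters as Ifi208, Ifi213 and Ifi214, and Ifi209 differs from them in 1 letter. In the KO and WT levels Ifi209 was called together with Ifi208, Ifi213 and Ifi214, and Mndal and Ifi207 were not. Whether the letters bear on these calls was not tested.

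**Figure D1:**
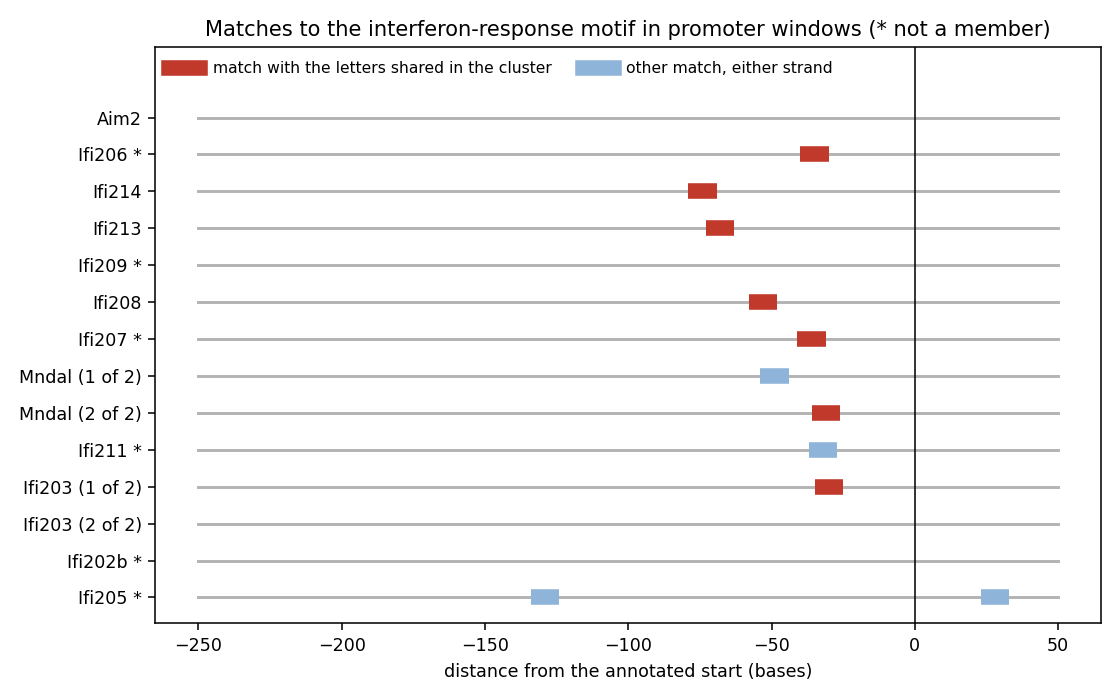
Position of GAAANNGAAA matches in the 14 promoter windows of the cluster, in bases from the annotated start (0); red bars mark matches that read GAAATCGAAA and blue bars other matches on either strand. The 7 red bars lie between 79 and 35 bases before the start, and Aim2, Ifi209, Ifi202b and the second Ifi203 window hold none.

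Trim28 was lower in KO cells at each time, with changes of -2.62, -3.10, -3.58 and -3.09 at 0, 4, 24 and 72 h and no overlap of arrays. Where its probes lie relative to the deletion is not known here. The mean level of 9 CD4 T cell markers was 10.16 to 10.26 on KO arrays and 9.98 to 10.05 on WT arrays at 24 h. At 72 h it was 10.01 to 10.13 on KO arrays and 9.84 to 9.87 on WT arrays, so KO arrays were above WT arrays at both times. Arrays numbered 3 had male levels and arrays 1 and 2 female levels of Xist and Y-linked genes in every group. Markers of other cells were not even between genotypes. The mean of 14 B cell markers was 4.66 to 5.26 on KO arrays and 4.11 to 4.78 on WT arrays at 0 h, and that of 19 myeloid markers was 4.22 to 4.77 on KO arrays and 3.84 to 4.12 on WT arrays. Of the B cell markers Ly6d (2.23), Cd22 (0.99) and Cd79b (0.95) were called at 0 h. In bulk RNA, fewer cells of a type and less RNA per cell cannot be told apart.

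Before stimulation and early after it no member was called between genotypes. At 0 h 0 of the 6 members passed the threshold, where 2.34% of all genes did, and at 4 h 0 of 6 passed, against 4.13%. Ifi208 was at 8.08, 8.26 and 8.15 on the KO arrays and 8.58, 8.10 and 7.73 on the WT arrays at 0 h, so the groups overlapped. Its change was 0.03 (95% confidence interval -0.63 to 0.68). The changes of the other 5 members with a probe set of their own lay at 0 h between -0.20 in Ifi213 and 0.24 in Ifi204, with adjusted p between 0.22 and 0.93 by limma. At 4 h Ifi213 was at 5.74, 5.75 and 5.21 on the KO arrays and 5.06, 5.09 and 4.64 on the WT arrays, which do not overlap, yet the change of 0.63 (interval 0.12 to 1.15) did not pass over all genes (limma, adjusted p = 0.194). KO and WT arrays did not overlap in 1 of the 6 members at 0 h (Ifi204) and 1 at 4 h (Ifi213), nor in 16.9% and 16.2% of all genes. The Ifi203 probe set, at 7.95, 8.12 and 7.85 on the KO arrays and 8.50, 8.23 and 8.27 on the WT arrays at 0 h, did not overlap either and changed by -0.36 (limma, adjusted p = 0.445). At 4 h it was at 6.14, 5.95 and 6.0 on the KO arrays and 5.67, 5.67 and 5.80 on the WT arrays, again without overlap, with a change of 0.32 (adjusted p = 0.415).

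**Figure D2:**
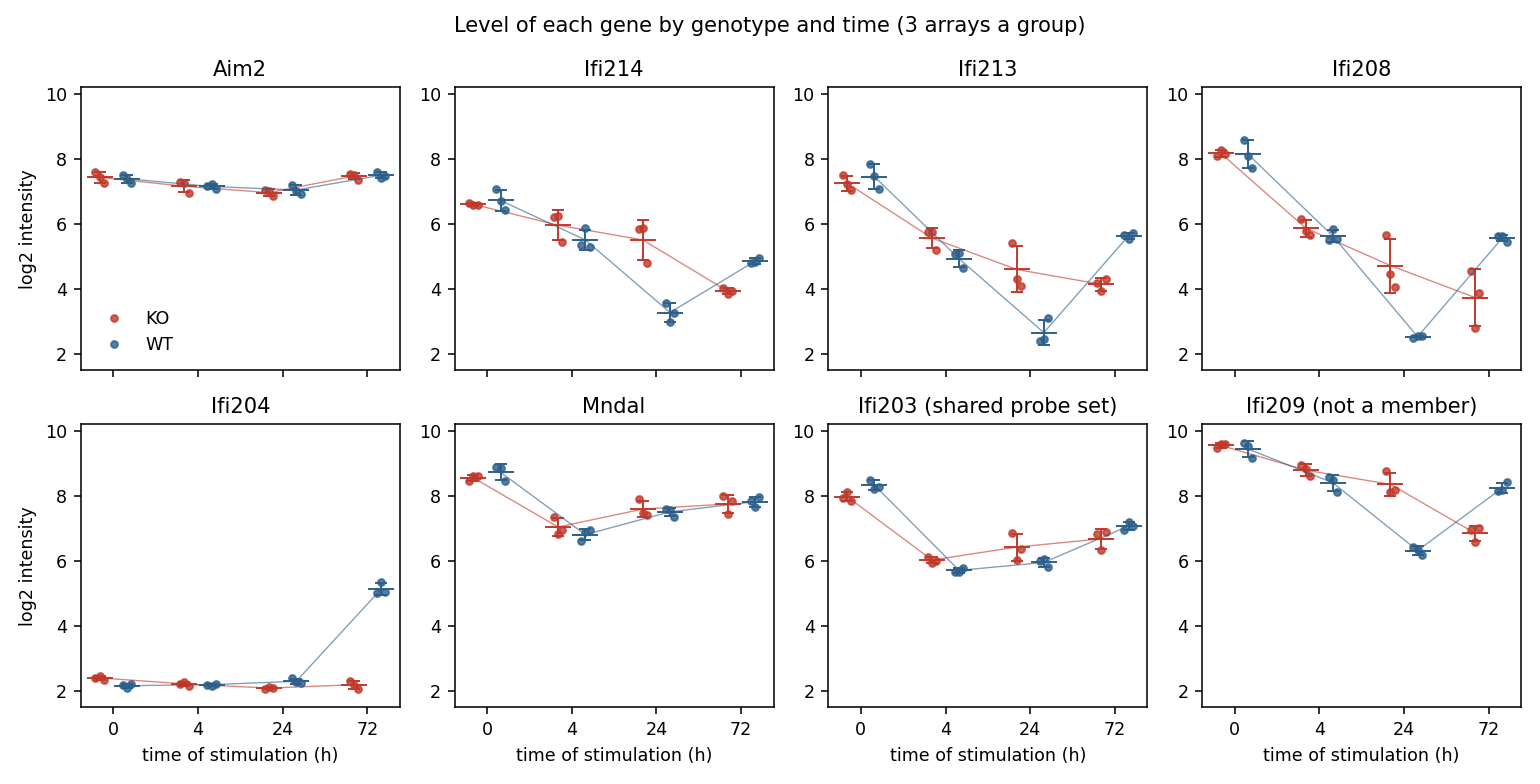
Level of the 6 members with a probe set of their own, of the Ifi203 probe set and of the neighbour Ifi209 in log2 intensity against time of stimulation in h; points are arrays, bars mean ± SD of 3 arrays, KO left and red, WT right and blue. Ifi214, Ifi213, Ifi208 and Ifi209 are higher in KO at 24 h and lower in KO at 72 h, and Ifi204 leaves the low end of the scale in WT at 72 h alone.

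Most of the 6 members were lower after stimulation in both genotypes. Against 0 h, 5 of 6 members were lower at 4 h in KO, where 16% of all genes were lower, and 4 of 6 in WT, against 17.8%. At 24 h 6 of 6 were lower in KO (16.5% of all genes) and 5 of 6 in WT (16.5%). The 6 in KO include Ifi204, whose mean went from 2.40 at 0 h to 2.09, at the low end of the scale and not shown to be above background. At 72 h 4 of 6 were lower in KO, against 18.6%, and in WT 4 were lower, against 18.3%, and Ifi204 was higher, as were 22.2% of all genes. Among the members Ifi208 fell furthest, in KO by 4.43 at 72 h (SE 0.32; limma, adjusted p = 5.67e-12) and in WT by 5.61 at 24 h (adjusted p = 4.61e-14). Of the calls at 4 h in KO, those of Ifi214 (-0.64) and Aim2 (-0.27) rest on single arrays: without KO array 3 of 4 h the changes were -0.37 (limma, adjusted p = 0.289) and -0.17 (adjusted p = 0.299). Each was also lost without KO array 1 or 2 of 0 h (adjusted p between 0.0666 and 0.227), Ifi214 without array 3 of 0 h (0.0684) and Aim2 without WT array 3 of 72 h (0.0502).

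At 24 h, 3 members of the cluster were higher in KO cells than in WT cells. Ifi208, Ifi213 and Ifi214 were called higher and 0 members lower, where 3.9% of all genes were higher and 7.38% lower. Whether the probe sets of these related genes share signal was not tested, so the 3 calls may not be separate measures, here or at 72 h. The median change of the 6 members was 1.01, against -0.05 over all genes. KO and WT arrays did not overlap in 4 of the 6 members at 24 h, nor in 27.2% of all genes. The 4 were the 3 called members and Ifi204, which was not called. Ifi204 lay the other way, at 2.06 to 2.11 on KO arrays and 2.25 to 2.39 on WT arrays, at the low end of the scale. Ifi208 was at 5.65, 4.45 and 4.05 on the KO arrays, against 2.50, 2.54 and 2.54 on the WT arrays. The WT arrays agree closely and lie near the low end of the scale, where RMA compresses differences, while the KO arrays spread widely and all lie above them. The change was 2.19 (SE 0.32; limma, adjusted p = 4.15e-05), which may understate the difference because nothing shows that the WT signal is above background.

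Ifi213, whose promoter window is a near-copy of that of Ifi208, was at 5.4, 4.32 and 4.07 on the KO arrays and 2.41, 2.46 and 3.1 on the WT arrays at 24 h. The groups do not overlap, and the change was 1.94 (SE 0.25; limma, adjusted p = 8.02e-06). The WT arrays are again at the low end of the scale and not shown to be above background, so the true difference may be larger. Ifi214 was at 5.83, 5.87 and 4.81 on the KO arrays and 3.56, 3.0 and 3.27 on the WT arrays. All KO arrays lie above all WT arrays here too, with a change of 2.23 (SE 0.23; adjusted p = 2.44e-07). KO array 1 was the highest of its group for Ifi208 and Ifi213. It also had the highest mean of B cell markers, 4.87 beside 4.44 and 4.57 on KO arrays 2 and 3, against 3.99 to 4.12 on the WT arrays. That mean includes Ly6d, which was called higher in KO at 24 h, and was not taken without it. The mean of myeloid markers on KO array 1 was 3.95 beside 3.66 and 3.76, against 3.63 to 3.67 on the WT arrays. KO arrays 1 and 3 were also left out at every time, which keeps the KO array with the lowest B cell marker mean. The changes of Ifi208, Ifi213 and Ifi214 at 24 h were then 1.92, 1.66 and 2.60. Such a fit assumes that the lone KO array varies like the other groups. The B cell marker mean of KO array 2, 4.44, is still above the WT arrays, so the part of other cells was not tested by it.

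At 72 h the same 3 genes were lower in KO cells, and Ifi204 with them. Of the 6 members 4 were called lower and 0 higher, where 3.78% of all genes were lower and 2.56% higher, and the median change was -1.21, against 0.01 over all genes. KO and WT arrays did not overlap in 4 of the 6 members at 72 h, nor in 24.6% of all genes. Ifi208 was at 4.54, 2.79 and 3.87 on the KO arrays and 5.64, 5.62 and 5.45 on the WT arrays. The KO arrays spread widely and all lie below the WT arrays, and the change was -1.83 (SE 0.32; limma, adjusted p = 0.000297). Ifi213 was at 4.19, 3.92 and 4.30 on the KO arrays and 5.64, 5.54 and 5.72 on the WT arrays, a change of -1.49 (SE 0.25; adjusted p = 0.000199). Ifi214 was at 4.02, 3.84 and 3.93 on the KO arrays and 4.78, 4.81 and 4.95 on the WT arrays, again without overlap, and changed least, by -0.92 (SE 0.23; adjusted p = 0.0122). The call of Ifi214 was lost without WT array 3 of 72 h (-0.87, adjusted p = 0.0621), without KO array 2 (-0.87, adjusted p = 0.0535) and with KO arrays 1 and 3 left out (-1.01, adjusted p = 0.0525).

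Being called higher at 24 h and lower at 72 h in KO cells was the case for 3 of the 6 members and for 88 of 22180 genes (0.397%), a count chosen after the values were seen. The reverse order of calls was found in 0 of the 6 members and 0.307% of all genes. Averaged over the 4 times, 2 of 6 members were called, Ifi204 lower (-0.72, limma, adjusted p = 7.49e-12) and Ifi214 higher (0.41, adjusted p = 0.0209), where 9.8% of all genes were called. The changes at each time share no array with those at another.

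**Figure D3:**
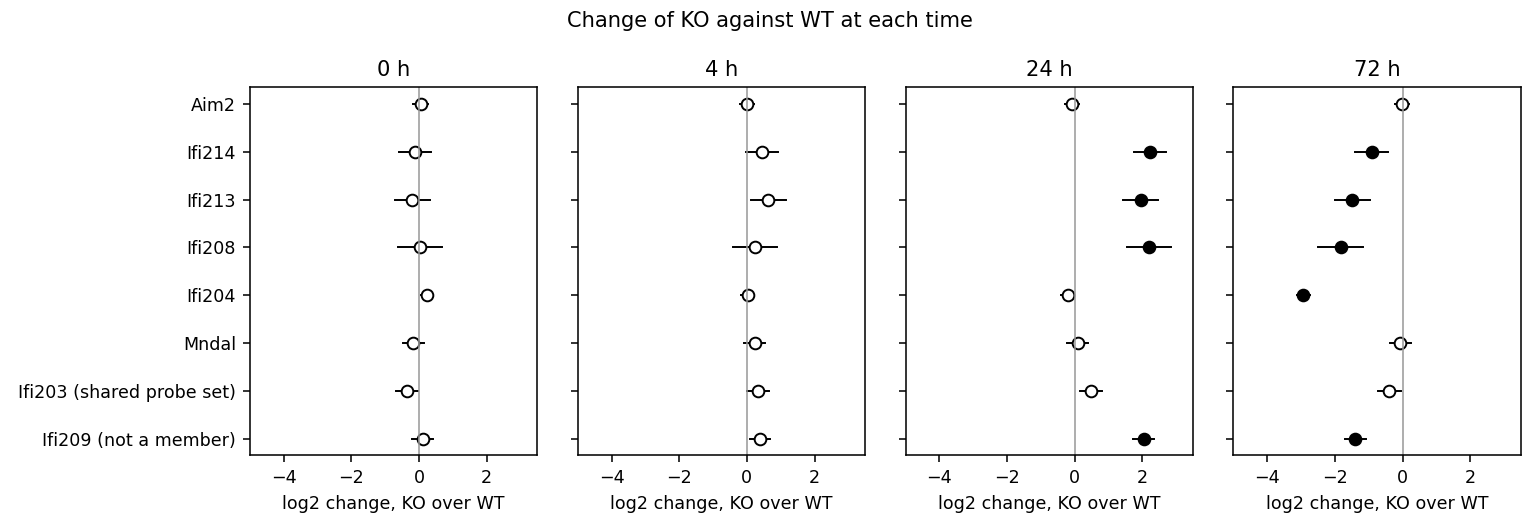
Log2 change of KO over WT at 0, 4, 24 and 72 h for the members and Ifi209, with 95% confidence intervals of the limma fit; filled points passed the threshold. No point is filled at 0 or 4 h, Ifi208, Ifi213, Ifi214 and Ifi209 are filled to the right of 0 at 24 h, and these and Ifi204 are filled to the left of 0 at 72 h.

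Late in the culture Ifi204, Ifi208, Ifi213 and Ifi214 were called higher in WT and not in KO, a comparison added after the levels were seen. At 72 h against 24 h, 1 of 6 members (Aim2) was higher and 2 were lower in KO (9.63% and 8.04% of all genes), whereas 5 of 6 were higher and 0 lower in WT (11.6% and 15.8%). Ifi214 changed by -1.58 in KO (limma, adjusted p = 9.7e-06) and 1.58 in WT (adjusted p = 5.25e-06). Ifi208 changed by -0.98 in KO (adjusted p = 0.0309) and 3.04 in WT (adjusted p = 2.68e-08). The call of Ifi208 in KO was lost without KO array 1 of 24 h (-0.52, adjusted p = 0.322), KO array 2 of 72 h (-0.51, adjusted p = 0.336) or KO array 3 of 72 h (-1.05, adjusted p = 0.0535), and also with the 2 groups fitted alone (adjusted p = 0.126) or robust eBayes (adjusted p = 0.0741). Ifi213 changed by -0.46 in KO, which was not called (adjusted p = 0.272), and by 2.98 in WT (adjusted p = 5.79e-10).

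The difference between the genotypes in this step was itself tested as an interaction, KO step minus WT step. It was called for 4 of 6 members, all negative, where 3.56% of all genes were called negative. Its values were -4.02 (SE 0.45) in Ifi208, -3.44 (SE 0.35) in Ifi213, -3.15 (SE 0.33) in Ifi214 and -2.73 (SE 0.13) in Ifi204 (limma, adjusted p between 3.63e-13 and 1.14e-06). Against 0 h, the interaction at 24 h was 2.16, 2.15 and 2.35 in Ifi208, Ifi213 and Ifi214 (adjusted p = 0.00447, 0.000549 and 7.71e-05), where 1.65% of all genes were called positive, and -0.45 in Ifi204 (adjusted p = 0.0353), where 4.22% were called negative. At 72 h against 0 h it was -3.17 in Ifi204 (adjusted p = 9.73e-15), -1.86 in Ifi208 (adjusted p = 0.0139) and -1.29 in Ifi213 (adjusted p = 0.0365), where 2.86% were called negative. The call of Ifi204 at 24 h rests on arrays at the low end of the scale. It was lost without array 1 or 2 of KO at 0 h, any KO array of 24 h, or array 1 or 2 of WT at 0 h or 24 h (-0.46 to -0.41, adjusted p between 0.0508 and 0.0904). At 72 h the call of Ifi208 was lost without WT array 3 of 0 h (-1.66, adjusted p = 0.0505). That of Ifi213 was lost without array 1 or 2 of KO at 0 h or 72 h, array 2 or 3 of WT at 0 h, or any WT array of 72 h (-1.34 to -1.09, adjusted p between 0.0545 and 0.116). At 4 h 0 of 6 members were called, against 0.726% of all genes.

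**Figure D4:**
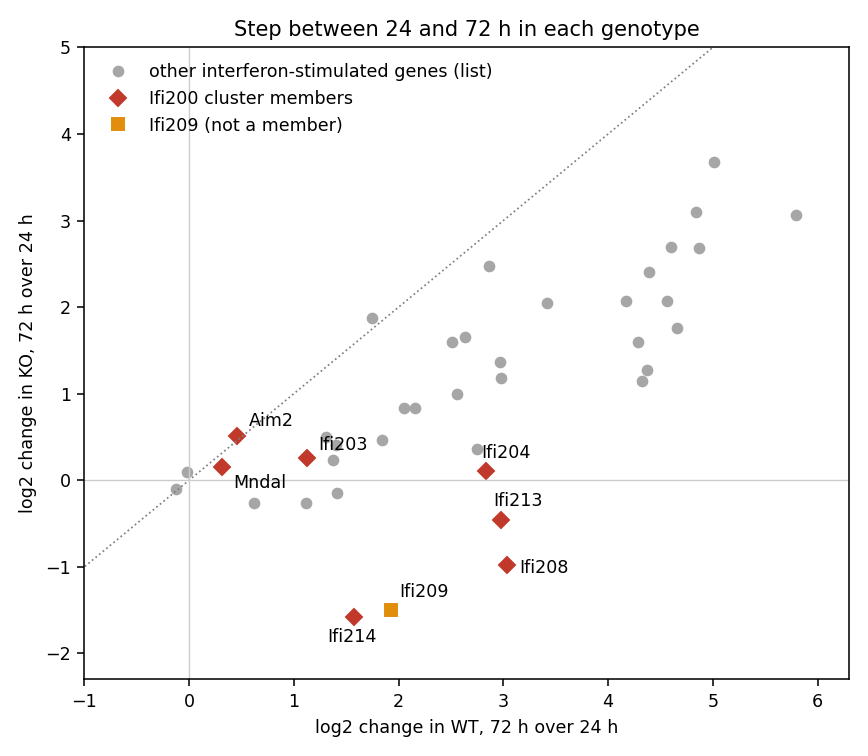
Log2 change at 72 h over 24 h in KO (vertical) against that in WT (horizontal) for the members (red diamonds), Ifi209 (orange square) and 32 other interferon-stimulated genes (grey); the dotted line marks equal steps. Ifi208, Ifi213, Ifi214 and Ifi209 lie above 0 in WT and below 0 in KO, most grey points lie above 0 in both, and Aim2 and Mndal lie near the dotted line.

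Ifi204, the macrophage DNA sensor, had a pattern of its own. At 72 h it was at 2.32, 2.20 and 2.07 on the KO arrays and 5.0, 5.34 and 5.04 on the WT arrays. On the arrays of 0, 4 and 24 h it lay between 2.06 and 2.46. The WT arrays of 72 h stand apart and the rest lie at the low end of the scale, where no detection call shows whether a signal is above background. The change at 72 h was -2.94 (SE 0.09; limma, adjusted p = 5.07e-18), which may understate the difference since the KO arrays are among those at the low end. It was not called between KO and WT at 0, 4 or 24 h (adjusted p between 0.15 and 0.943). A second probe set lists Ifi211 and Ifi204 together, and its signal cannot be assigned to either gene here. At 72 h it was at 6.44, 4.87 and 5.87 on the KO arrays and 9.87, 9.38 and 9.62 on the WT arrays. It was tested among the 1814 probe sets with several genes and changed by -3.89 (SE 0.29; adjusted p = 5.05e-09), where 3.09% of these were lower. Already at 24 h it was lower in KO, at 4.72, 4.72 and 4.49, against 6.35, 5.86 and 5.44 in WT (-1.24, adjusted p = 0.0136; 4.08% of these probe sets were lower), a time at which Ifi208, Ifi213 and Ifi214 were higher. That call was lost without WT array 1 (-1.0, adjusted p = 0.0817), without KO array 3 (-1.16, adjusted p = 0.0537), with arrays 1 and 2 alone (adjusted p = 0.0774) and with KO arrays 1 and 3 left out (adjusted p = 0.233). In this set KO cells were higher at 72 h than at 24 h (1.08, adjusted p = 0.013), less than WT cells (3.74, adjusted p = 1.71e-09), and the interaction was -2.66 (adjusted p = 0.000193). The KO step was not called without KO array 1 of 72 h (0.73, adjusted p = 0.112), array 3 of 72 h (0.0554) or array 3 of 24 h (0.0532), with arrays 1 and 2 alone (0.189) or with KO arrays 1 and 3 left out (0.988).

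Aim2, which assembles the inflammasome, had the smallest span among the members, its 8 group means covering 0.54, and no KO and WT comparison was called, with changes of 0.04, 0.01, -0.08 and -0.02 at 0, 4, 24 and 72 h. At 72 h it was at 7.53, 7.52 and 7.36 on the KO arrays and 7.60, 7.41 and 7.47 on the WT arrays, so the groups overlap, and the interval of the difference was -0.23 to 0.19. At 72 h against 24 h Aim2 was higher in both genotypes, by 0.51 in KO (limma, adjusted p = 0.000472) and 0.45 in WT (adjusted p = 0.001). Of the proteins that act with it, Pycard changed by 0.35 at 24 h (adjusted p = 0.0613) and 0.08 at 72 h, and Casp1 by 0.28 and 0.52, with none called.

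Mndal was lower than at 0 h at each later time in both genotypes, most at 4 h (-1.51 in KO and -1.92 in WT). It was at 7.36, 6.82 and 6.95 on the KO arrays and 6.61, 6.88 and 6.94 on the WT arrays at 4 h. At 72 h it was at 7.98, 7.43 and 7.84 on the KO arrays and 7.84, 7.66 and 7.96 on the WT arrays. KO and WT overlapped at every time and no change was called, with intervals of -0.23 to 0.40 at 24 h and -0.38 to 0.24 at 72 h. The Ifi203 probe set was at 6.87, 6.04 and 6.38 on the KO arrays and 6.0, 6.05 and 5.81 on the WT arrays at 24 h. At 72 h it was at 6.83, 6.33 and 6.88 on the KO arrays and 6.96, 7.18 and 7.08 on the WT arrays. Its changes were 0.47 (limma, adjusted p = 0.0802) and -0.39 (adjusted p = 0.212), neither called. Without KO array 2 of 24 h the first was called (0.67, adjusted p = 0.0173), as it was when the table was quantile normalized again (0.56, adjusted p = 0.0485). With KO arrays 1 and 3 left out the second was called (-0.75, adjusted p = 0.0189). Its step to 72 h against 24 h was smaller in KO than in WT, an interaction of -0.87 (adjusted p = 0.0179), where 2.65% of probe sets with several genes were called negative. It was not called without KO array 1 of 24 h (-0.65, adjusted p = 0.0599), without KO array 2 of 72 h (-0.69, adjusted p = 0.0623), with arrays 1 and 2 alone (adjusted p = 0.165) or with KO arrays 1 and 3 left out (adjusted p = 0.102).

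In the order of its levels over the 8 groups, each of Ifi208, Ifi213 and Ifi214 had the WT arrays of 24 h lowest, with no array of the next group, KO at 72 h, reaching down to them. At the top stood the unstimulated groups, KO and WT overlapping, and between them the groups of 4 h, KO at 24 h and WT at 72 h mostly overlapped. The group means spanned 5.63 in Ifi208, 4.80 in Ifi213, 3.45 in Ifi214, 3.04 in Ifi204 and 1.92 in Mndal. For Mndal the lowest groups were those of 4 h, which overlapped with each other and, for KO, with WT at 24 h. For Aim2 every neighbour in the order overlapped, and for Ifi204 every neighbour below WT at 72 h did.

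Of the other genes of the cluster with a probe set of their own, Ifi209 was called in KO against WT at the same times and in the same directions as Ifi214. It was at 8.76, 8.12 and 8.19 on the KO arrays and 6.44, 6.33 and 6.19 on the WT arrays at 24 h. At 72 h it was at 6.96, 6.59 and 7.01 on the KO arrays and 8.14, 8.18 and 8.42 on the WT arrays. The groups do not overlap at either time, and the changes were 2.04 (SE 0.15; limma, adjusted p = 4.82e-10) and -1.40 (SE 0.15; adjusted p = 2.33e-07). Its promoter window is a near-copy of that of Ifi214. Whether probe sets of such related genes share signal was not tested. Ifi205, Ifi207, Ifi202b and Ifi203-ps stayed at group means between 2.29 and 2.96 and none was called in KO against WT at any time. Of the neighbours outside the cluster, Mptx2, Ackr1 and Cadm3 before it and Olfr433 and Olfr432 after it were not called between KO and WT at any time (changes between -0.31 and 0.28).

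Likeness between genes was described over the 24 arrays, which share the time course, so that these correlations reflect the groups as much as the arrays. Pearson's r was 0.98 between Ifi208 and Ifi213, 0.92 between Ifi208 and Ifi214, 0.94 between Mndal and the Ifi203 probe set, and between -0.14 and 0.43 for Ifi204 with the other members. Among 5289 genes whose group means span at least 1, Ifi214 was closest to Ifi209 (r = 0.97), Hbp1 (0.93) and Tnfrsf26 (0.93). Ifi208 and Ifi213 were closest to each other, then Ifi208 to Laptm5 (0.96) and Gabbr1 (0.96) and Ifi213 to Trim12a (0.97) and Ypel5 (0.96). Ifi204 was closest to Osr2 (0.99), Mpeg1 (0.97) and Rasa4 (0.97). Mndal was closest to Kbtbd11 (0.96), Ascc1 (0.95) and Themis (0.95), and the Ifi203 probe set to Kif21b (0.98), Sp100 (0.97) and Trim14 (0.96). Aim2 was closest to Slc2a3 (0.88), Ctss (0.85) and Irf7 (0.85).

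The other interferon-stimulated genes were set beside the members from a list of 36, of which 32 were measured. At 24 h 8 of the 32 were higher and 0 lower in KO, with a median of 0.25, and the highest changes among those called were in Rtp4 (1.21), a chaperone of receptors, Parp9 (0.76) and Epsti1 (0.64). At 72 h 2 were higher and 28 lower, with a median of -1.16, led by the chemokine gene Cxcl10 (-3.28) and the antiviral genes Rsad2 (-3.23) and Mx1 (-2.67). At 72 h against 24 h, 24 of the 32 were higher and 0 lower in KO, and 30 were higher and 0 lower in WT. Oas3, a sensor of double-stranded RNA, was higher by 3.68 in KO and 5.01 in WT. Beside these, Ifi208, Ifi213 and Ifi214 changed by -0.98, -0.46 and -1.58 in KO over the same interval, and the lists were not tested against each other. Of the list, 5 genes were higher at 24 h and lower at 72 h in KO (Rtp4, Gbp3, Igtp, Parp9 and Epsti1), against 3 of 6 members. The same calls were made for 4 of 17 interferon receptor and signalling genes, 3 of 16 genes of nucleic acid sensing and the neighbour Ifi209. They were made for 0 of 10 inflammasome genes and 0 of 10 interferon genes.

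Interferon genes themselves were called between genotypes at 72 h and at no earlier time. Of 10 measured interferon genes 0 were called at 24 h, while at 72 h 7 were lower in KO, led by Ifnl3 (-2.12), Ifnl2 (-1.01) and Ifna1 (-0.95). Ifnl3 averaged 3.61 ± 0.16 in KO and 5.73 ± 0.53 in WT at 72 h (SD, n = 3 each). Of 17 receptor and signalling genes, 9 were higher and 2 lower in KO at 24 h, and 2 were higher and 9 lower at 72 h. Usp18, which removes Isg15 from proteins and restrains the type I receptor, changed by 2.85 at 24 h and -1.25 at 72 h, the same signs as Ifi208. At 24 h it averaged 7.90 ± 0.48 in KO and 5.04 ± 0.01 in WT (SD, n = 3 each). At 72 h the KO mean was 9.56 ± 0.22 and the WT mean 10.82 ± 0.11. Socs3 (0.92) and Ifngr1 (0.79) were the next highest at 24 h, and the transcription factors Irf8 (-1.44) and Irf7 (-1.38) were the lowest at 72 h. Usp18 was also higher in KO at 0 h (0.88) and 4 h (3.11), times at which no member was called. Among others called then, Ifngr1 was higher at both times (0.70 and 1.32), Socs3 at 0 h (0.70) and Irf1 at 4 h (0.73). Irf8 was lower at 4 h (-0.67). Of the interferon-stimulated list, Oas2 was lower at 0 h (-1.03), and Iigp1 (1.29), Igtp (0.69) and Ifit2 (0.59) led those higher at 4 h.

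Of 16 measured genes of nucleic acid sensing, 4 were higher and 3 lower in KO at 24 h, and 0 were higher and 6 lower at 72 h. Zbp1, a sensor of Z-form nucleic acid, changed by 1.34 and -1.55, while Ifih1, a sensor of long double-stranded RNA, was lower at both times (-1.52 and -1.78). Sting1, the adaptor downstream of Ifi204, changed by 0.27 at 24 h (limma, adjusted p = 0.0565) and -0.10 at 72 h (adjusted p = 0.764), neither called. Earlier it was called higher in KO at 0 h (0.35, limma, adjusted p = 0.0428) and not called at 4 h (0.28, adjusted p = 0.0874). Of 10 inflammasome genes, 2 were higher at 24 h, Gsdmd (0.49), the pore of pyroptosis, and Casp8 (0.39), and 1 was lower at 72 h, the cytokine gene Il18 (-1.40).

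Marker lists of other cells were read at the 2 times at which members differed. At 24 h 2 of 14 B cell markers were higher in KO (Ly6d, 3.06, and Pax5, 0.75), with their mean at 4.44 to 4.87 on KO arrays and 3.99 to 4.12 on WT arrays, and 0 of 19 myeloid markers were called. At 72 h 1 B cell marker was higher (Ly6d, 2.53), the mean lying at 4.06 to 4.50 on KO arrays and 3.71 to 3.89 on WT arrays, and 3 myeloid markers were lower, Mpeg1 (-3.38), Ctss (-0.58) and Cd68 (-0.58). The myeloid mean was 3.79 to 3.85 on KO arrays and 3.96 to 4.07 on WT arrays. Mpeg1, which is part of it, changed from 0 to 72 h by 3.94 in WT and 0.48 in KO, and the mean was not taken without Mpeg1. The defining myeloid genes Lyz2 and S100a8 were at 3.07 ± 0.38 and 2.58 ± 0.14 in KO and 3.0 ± 0.28 and 2.73 ± 0.07 in WT at 72 h (SD, n = 3 each), near the low end of the scale in both. Earlier, both were called higher in KO, by 1.39 and 2.26 at 0 h and by 0.97 and 1.99 at 4 h. Of 9 natural killer and CD8 markers 0 were higher and 4 lower in KO at 72 h, Eomes most (-3.15), with means of 3.99 to 4.11 on KO arrays and 4.63 to 4.88 on WT arrays. From 0 to 72 h Eomes changed by 3.08 in WT and 0.40 in KO, and Nkg7 by 3.53 and 1.76. Cd8a changed by -0.08 and -0.22, neither called, and Prf1 fell in both (-3.77 and -4.14). The mean was not taken without Eomes and Nkg7. Of 8 plasmacytoid dendritic cell markers, which share Ly6d and Spib with the B cell list and Bst2 with the interferon list, 2 were higher at 24 h, and 1 was higher and 1 lower (Bst2, -0.94) at 72 h. The part of other cells in the differences of the members was not tested.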

How the data were processed

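RNA of 24 samples was measured on Affymetrix GeneTitan arrays. The deposited values are log2 intensities. The submitters' processing notes name RMA, oligo and R 3.1.0. RMA sets all arrays to 1 distribution, so every change is relative to the other genes, and no detection calls were given. Of 41345 probe sets, 23521 were annotated to 1 gene, 1814 to several (fitted apart) and 16010 were unlisted. Of several probe sets of a gene (1082 genes) the brightest on average was used, which left 22180 genes. Groups were taken from the labels. limma 3.58.1 (R 4.3.3) fitted 8 group means with lmFit and eBayes with a mean-variance trend, two-sided, with Benjamini-Hochberg adjustment over all genes, and its code was tested on simulated data. The number of arrays limits the precision. Replicate numbers did not mark shared animals in the labels.

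Named were the members, the other cluster genes and neighbours, the 3 most alike genes of each member, and up to 3 called genes of each list per comparison, besides Trim28 and set marker and pathway genes. Ctss, Cd68 and Mpeg1 are the 3 called myeloid genes, Gbp3 and Igtp complete a count of 5, and Cd8a was added as a defining gene. The members and lists were chosen with earlier results of these data known. Promoter windows came from RefSeq (GRCm38.p6) and were aligned with Biopython 1.88. Alternatives were another choice of probe set, a filter on low levels, quantile normalization run again, the compared groups alone, a replicate block, arrays 1 and 2 alone, robust and untrended eBayes, KO arrays 1 and 3 left out, and each array left out in turn.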

Additional observations from a re-analysis of the deposited data

Results flagged for a closer look

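The step between times differed between KO and WT, by the interaction test in limma, for the 5 probe sets of members given here, and also for the neighbour Ifi209 and the Ifi211 and Ifi204 probe set. The interaction at 24 h against 0 h was 2.16 in Ifi208, 2.15 in Ifi213, 2.35 in Ifi214 and -0.45 in Ifi204. At 72 h against 0 h it was -1.86 in Ifi208, -1.29 in Ifi213 and -3.17 in Ifi204. At 72 h against 24 h it was -4.02 in Ifi208, -3.44 in Ifi213, -3.15 in Ifi214, -2.73 in Ifi204 and -0.87 in the Ifi203 probe set. Positive values mean that KO cells lost less or gained more signal than WT cells over the interval, and negative values the opposite. The arrays behind the Ifi204 value at 24 h against 0 h lay between 2.06 and 2.46, at the low end of the scale. That call was lost without certain single arrays. So were those of Ifi208 and Ifi213 at 72 h against 0 h and that of the Ifi203 probe set.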

How the results depend on the processing

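No result changed direction under any alternative. Of 4429 values of single genes under an alternative, 4338 stayed on their side of the threshold, 74 were no longer called and 17 became called. Counts of members called that moved by over 1.5 times, with the main count of 5 at 4 h against 0 h in KO, were 3 there with arrays 1 and 2 alone and 3 with KO arrays 1 and 3 left out, which also gave 3 in place of 6 at 24 h against 0 h in KO. The count for 72 h against 0 h in the interaction was 1 in place of 3 with arrays 1 and 2 alone, and the count averaged over the times was 1 in place of 2 with genes below the 40th percentile left out, since Ifi204 is one of these. With 1 array left out, the count at 72 h in KO against WT was 3 to 4, that at 4 h against 0 h in KO 3 to 5, that at 72 h against 0 h in KO 4 to 5, that of the interaction at 24 h 3 to 4 and at 72 h 1 to 3, and that at 72 h against 24 h in KO 2 to 3. Leaving out any array did not change the count of 0 at 0 h and at 4 h, of 3 at 24 h or of 2 averaged over the times. Nor did it change 6 at 24 h against 0 h in KO, 4, 5 and 5 at 4, 24 and 72 h against 0 h in WT, or 0 in the interaction at 4 h. Against 24 h, 5 at 72 h in WT and 4 in the interaction were unchanged too. With the replicate number as a block the counts were those of the main fit except 5 in place of 4 at 4 h against 0 h in WT, where Aim2 was then called (-0.23, limma, adjusted p = 0.0176). Arrays with the same number correlated at 0.03 to 0.17 after group means were taken off, and each correlated best with its own number, a hint from the data only. Over all genes, fitting the compared groups alone called 276 in place of 518 genes at 0 h and 309 in place of 917 at 4 h. Arrays 1 and 2 alone called 284, 562 and 707 at 0, 4 and 72 h, the last in place of 1405. Leaving out KO arrays 1 and 3 called 133, 238, 472 and 481 at 0, 4, 24 and 72 h, with 2501 called at 24 h otherwise. The interaction at 4 h called 79, 76 and 29 genes with the compared groups alone, with arrays 1 and 2 alone and with KO arrays 1 and 3 left out, in place of 161. The last 2 settings called 1332 and 607 in place of 2174 averaged over the times, 779 and 152 in place of 1302 for the interaction at 24 h, 451 and 260 in place of 868 at 72 h, and 942 and 265 in place of 1876 for 72 h against 24 h. With KO arrays 1 and 3 left out, the KO steps called 4125 in place of 6895 genes at 4 h, 4839 in place of 7546 at 24 h, 5821 in place of 8810 at 72 h and 1488 in place of 3920 for 72 h against 24 h. No detection call shows whether the probe sets at the low end of the scale are above background.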
